A study of Mus musculus with 10 samples.

Results

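Lum, Dcn, Bgn, Pdgfra, Fbln1, Fbln2, Fap, Postn, Fstl1 and Mfap5 are genes of the fibroblast matrix: small proteoglycans, fibulins, other secreted matrix proteins, a growth factor receptor and a surface protease. These 10 genes were taken by name from the 16290 genes of the table, with collagen genes left aside. All 10 were in the table, and all 10 passed the filter on low values that left 15694 genes for testing. RNA-seq had been done on mammary epithelial cells of FVB mice, freed with enzymes from mammary glands 3 and 4 and enriched by pulse spins, to learn which genes change when a protein arginine methyltransferase (PRMT) is overexpressed. The 4 genotypes were NIC (n = 2 libraries), NIC-Prmt1 (n = 3), NIC-Carm1 (n = 3) and NIC-Prmt6 (n = 2), and these numbers are the n of every mean given here. All 4 share NIC, which the labels do not spell out, so NIC was the reference and not a wild type. The age of the mice, the promoter driving each transgene, the number of founder lines and whether libraries came from separate animals: none of these was given in the sources used here. The p-values therefore measure only the spread between these libraries, which may be technical.

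Fibroblasts of the mammary stroma lie around the ducts and secrete most of the matrix that surrounds the epithelium. The small leucine-rich proteoglycans carry short sugar chains on a curved protein core that binds collagen fibrils and sets their width and spacing. Fibulins and microfibril-associated proteins link elastic fibres and basement membranes, and matricellular proteins such as periostin sit in the matrix and signal to cells through integrins. In the mammary gland these genes are textbook markers of stromal cells rather than of epithelial cells. In bulk RNA, fewer cells of a type and less RNA per cell cannot be told apart.

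The deposited values are read counts divided by a size factor per library, called normalised read counts here. The libraries held between 21589300 and 30260900 recovered reads, and the members between 156 reads (Fap, lowest library) and 50284 reads (Dcn, highest library). Counting error was thus small beside the fold changes called, but not beside every gap between single libraries. Pdgfra in NIC-Carm1 replicate 1 (1788.6) and NIC replicate 1 (1796.3) was nearly equal. So was Fbln2 in NIC-Prmt1 replicate 1 (15565) and NIC-Prmt6 replicate 1 (15690.3). Prmt6 was higher in the NIC-Prmt6 libraries (873 to 909) than in all other libraries (224 to 451). Carm1 was higher in NIC-Carm1 (2146 to 2479) than in NIC (1556 to 1567), but NIC-Prmt1 (2025 to 2303) and NIC-Prmt6 (2295 to 2432) were at a like level. Prmt1 overlapped between NIC-Prmt1 (2702 to 3258) and NIC (2675 to 3077), so this gene did not tell them apart, and the libraries are named here as labelled. Luminal epithelial markers summed to between 141602 and 316809 in every library, and none of the 10 was at 0. NIC-Carm1 replicates 2 and 3, and NIC-Prmt6 replicates 1 and 2, were nearly alike: the chi-square per degree of freedom between their reads was 2.65 and 2.41, against 27.2 to 101 for the other pairs within a group. This is above counting noise but does not show that they are separate samples. They were kept as separate libraries in the main fit, and each such pair averaged into 1 sample was run as an alternative. The p-values and SDs given for NIC-Prmt6 rest on 1 such pair. The p-values of all other comparisons depend on both pairs too, since the fit shares the spread over all 10 libraries. NIC-Prmt1 replicate 1 stood apart in skin keratinocyte markers, which summed to 25587 there, to 2437 in NIC-Prmt1 replicate 3 and to between 59.3 and 178 in the other 8 libraries.

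The 10 genes formed a shared pattern with NIC-Prmt6 highest, NIC-Prmt1 next, and NIC and NIC-Carm1 lowest. Together they took 0.527% of all reads in both NIC-Prmt6 libraries, 0.308% to 0.394% in NIC-Prmt1, 0.194% to 0.200% in NIC and 0.158% to 0.188% in NIC-Carm1. In 9 of the 10, every NIC-Prmt6 library was above all 8 other libraries, which was so for 15.5% of all genes tested, and the exception was Bgn. In 5 of the 10 (Dcn, Bgn, Fbln1, Mfap5 and Pdgfra), every NIC-Carm1 library was below all 7 other libraries, which was so for 7.58% of all genes tested. Against NIC, limma called 10 members higher in NIC-Prmt6, where 36.8% of all genes were called in either direction, 19% as higher and 17.8% as lower. It called 9 members higher in NIC-Prmt1, where 29.6% of all genes were called, 15.2% as higher and 14.4% as lower. It called 2 members lower in NIC-Carm1, where 16% of all genes were called, 6.65% as higher and 9.36% as lower. All 10 members lay above NIC without overlap in NIC-Prmt6 (38.1% of all genes) and in NIC-Prmt1 (28.2%), and 5 lay below it without overlap in NIC-Carm1 (24.5%). The median log2 fold change of the members was 1.32 in NIC-Prmt6, 0.70 in NIC-Prmt1 and -0.31 in NIC-Carm1, and that of all genes tested lay between -0.01 and 0.00 in the 3 comparisons. The 3 comparisons share the same 2 NIC libraries and are not independent of each other.

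**Figure D1:**
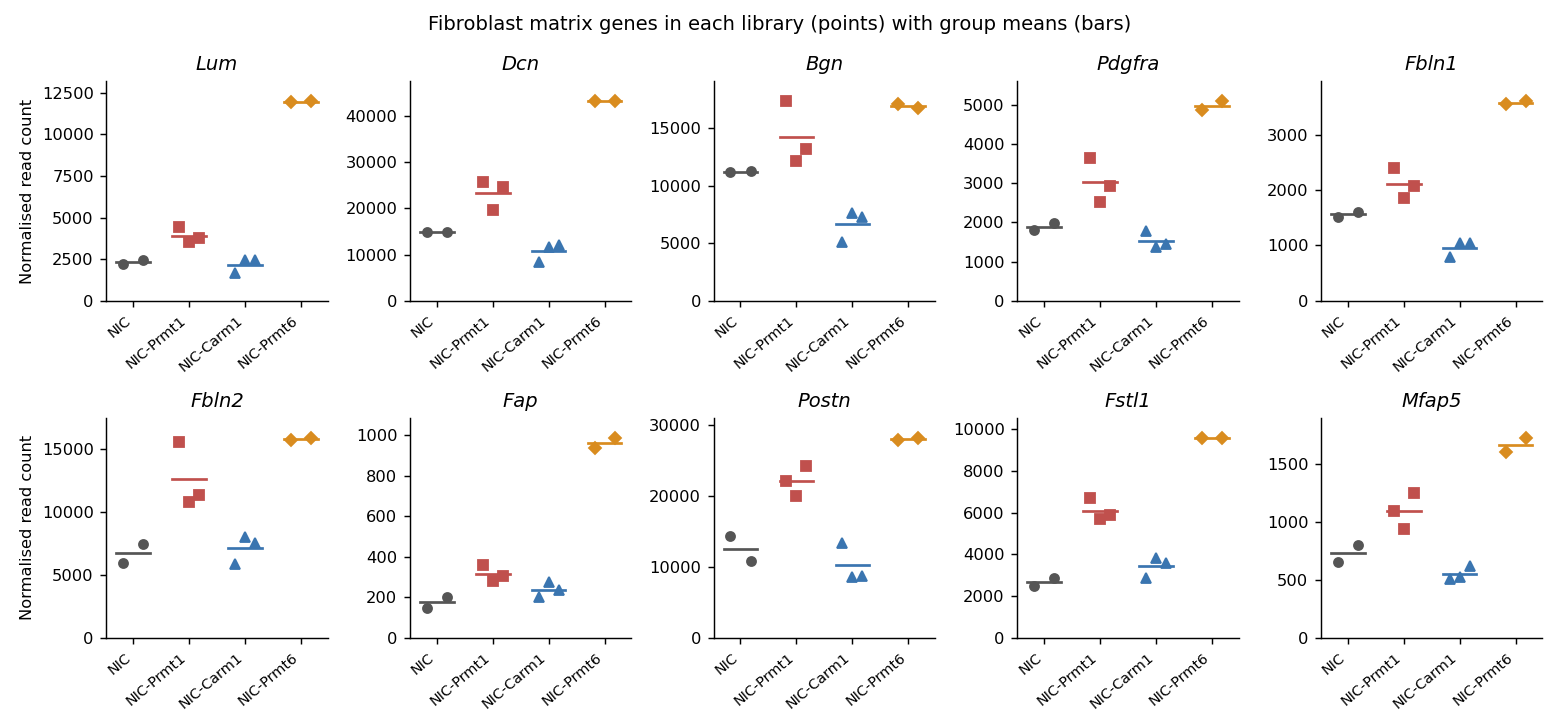
Normalised read count of each member in each of the 10 libraries, on linear axes from 0 set for each gene, grouped by genotype; points are libraries and bars are group means. The NIC-Prmt6 libraries sit above all others in each panel but that of Bgn, where NIC-Prmt1 replicate 1 (17373) is above both (17075 and 16734).

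Among the small leucine-rich proteoglycans, Lum (lumican, a keratan sulfate proteoglycan that spaces collagen fibrils; chromosome 10, 97565128 to 97572703, plus strand, GRCm38, protein coding) had the largest rise in NIC-Prmt6 of the 3 members. Its normalised read count was 2199.8 and 2472 in NIC, 4446, 3527 and 3747 in NIC-Prmt1, 1669, 2435 and 2446 in NIC-Carm1, and 11922 and 11995 in NIC-Prmt6. The NIC-Prmt6 libraries were far above the rest, NIC-Prmt1 lay between without overlap, and NIC-Carm1 overlapped with NIC. Lum rose in NIC-Prmt6 by a log2 fold change of 2.36 ± 0.18 (SE; limma, adjusted p = 6.76e-05) and in NIC-Prmt1 by 0.74 ± 0.17 (limma, adjusted p = 0.0105). In NIC-Carm1 its log2 fold change was -0.12 ± 0.17 (limma, adjusted p = 0.677). NIC-Prmt1 was lower than NIC-Prmt6 by -1.62 ± 0.17 on the log2 scale (limma, adjusted p = 9.36e-04), and this call was lost (adjusted p = 0.0537) with near-identical libraries averaged.

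Dcn (decorin, which coats collagen fibrils and binds TGF-beta; chromosome 10, 97479609 to 97518143, plus strand) is a neighbour of Lum on the chromosome, 46984 bases away with no protein-coding gene between. It was read at 14924 and 14949 in NIC, 25721, 19616 and 24713 in NIC-Prmt1, 8392, 11585 and 12120.2 in NIC-Carm1, and 43219 and 43249 in NIC-Prmt6. None of the 4 groups overlapped in this gene, with NIC-Carm1 lowest. Dcn rose by 1.53 ± 0.19 in NIC-Prmt6 (limma, adjusted p = 4.23e-04) and by 0.63 ± 0.17 in NIC-Prmt1 (limma, adjusted p = 0.0213). The NIC-Prmt1 call was lost in 6 of the 21 alternatives, among them those without either NIC library, NIC-Prmt1 replicate 1 or NIC-Prmt1 replicate 3 (adjusted p up to 0.0950). The difference of NIC-Carm1 from NIC, -0.50 ± 0.17, did not pass the threshold (limma, adjusted p = 0.0749). NIC-Prmt1 and NIC-Carm1 differed by 1.13 ± 0.15 (limma, adjusted p = 0.00175).

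Bgn (biglycan, the closest relative of decorin, also a ligand of Toll-like receptors; chromosome X, 73483602 to 73495933, plus strand) departed from this order. Its counts were 11161 and 11255 in NIC, 17373, 12165 and 13241 in NIC-Prmt1, 5147, 7636 and 7291 in NIC-Carm1, and 17075 and 16734 in NIC-Prmt6. NIC-Prmt1 and NIC-Prmt6 overlapped because of NIC-Prmt1 replicate 1, and all 3 NIC-Carm1 libraries lay well below NIC. Bgn fell in NIC-Carm1 by -0.77 ± 0.19 (limma, adjusted p = 0.0230) and rose in NIC-Prmt6 by 0.59 ± 0.20 (limma, adjusted p = 0.0438). Its log2 fold change in NIC-Prmt1 was 0.33 ± 0.19 (limma, adjusted p = 0.201), the single member there that missed the threshold. The call in NIC-Prmt6 was lost in 9 of the 21 alternative settings (adjusted p up to 0.181).

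Fbln1 (fibulin-1, a matrix and plasma protein that binds fibronectin and basement membrane proteins; chromosome 15, 85205949 to 85286535, plus strand) stood on opposite sides of NIC in NIC-Prmt1 and NIC-Carm1. It was read at 1520.4 and 1606 in NIC, 2405, 1853 and 2079 in NIC-Prmt1, 787, 1041 and 1044 in NIC-Carm1, and 3547 and 3606 in NIC-Prmt6. The groups did not overlap. Fbln1 rose by 1.19 ± 0.16 in NIC-Prmt6 (limma, adjusted p = 5.82e-04), rose by 0.43 ± 0.14 in NIC-Prmt1 (limma, adjusted p = 0.0478) and fell in NIC-Carm1 by -0.72 ± 0.14 (limma, adjusted p = 0.0107). NIC-Prmt1 was above NIC-Carm1 by 1.14 ± 0.13 (limma, adjusted p = 0.00105). The call in NIC-Prmt1 was close to the threshold and was lost in 11 of the 21 alternatives.

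Fbln2 (fibulin-2, which binds fibrillin-1 and elastin; chromosome 6, 91212455 to 91272540, plus strand) followed Fbln1 in NIC-Prmt6 but not in NIC-Carm1. Its counts were 5959 and 7469 in NIC, 15565, 10781 and 11362 in NIC-Prmt1, 5819.8, 7989 and 7540.0 in NIC-Carm1, and 15690.3 and 15876 in NIC-Prmt6. NIC and NIC-Carm1 overlapped fully, and NIC-Prmt1 replicate 1 lay just below both NIC-Prmt6 libraries. Fbln2 rose by 1.24 ± 0.20 in NIC-Prmt6 (limma, adjusted p = 0.00165) and by 0.89 ± 0.18 in NIC-Prmt1 (limma, adjusted p = 0.00709). In NIC-Carm1 the log2 fold change was 0.08 ± 0.18 (limma, adjusted p = 0.807), and NIC-Prmt1 against NIC-Prmt6 gave -0.35 ± 0.18 (limma, adjusted p = 0.265).

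Mfap5 (a glycoprotein of fibrillin microfibrils; chromosome 6, 122505845 to 122529290, plus strand) was among the less abundant members. It was read at 657 and 801 in NIC, 1094, 940.5 and 1251 in NIC-Prmt1, 509, 526 and 616 in NIC-Carm1, and 1607 and 1731 in NIC-Prmt6. The groups did not overlap, with NIC-Carm1 lowest. Mfap5 rose by 1.20 ± 0.16 in NIC-Prmt6 (limma, adjusted p = 5.97e-04) and by 0.58 ± 0.14 in NIC-Prmt1 (limma, adjusted p = 0.0152). The difference in NIC-Carm1, -0.40 ± 0.14, missed the threshold (limma, adjusted p = 0.0865).

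Of the matricellular members, Postn (periostin, an integrin ligand of the matrix; chromosome 3, 54361109 to 54391037, plus strand) varied widely within NIC and NIC-Carm1. Its counts were 14264 and 10847 in NIC, 22059.7, 19967 and 24142 in NIC-Prmt1, 13388, 8507 and 8654 in NIC-Carm1, and 27792 and 28180.0 in NIC-Prmt6. NIC-Carm1 replicate 1 lay within the NIC range while replicates 2 and 3 lay below it. Postn rose by 1.17 ± 0.22 in NIC-Prmt6 (limma, adjusted p = 0.00321) and by 0.82 ± 0.20 in NIC-Prmt1 (limma, adjusted p = 0.0141). In NIC-Carm1 the value was -0.32 ± 0.20 (limma, adjusted p = 0.304).

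Fstl1 (follistatin-like 1, a secreted glycoprotein that binds members of the BMP family; chromosome 16, 37776873 to 37836514, plus strand) had the largest rise of the members in NIC-Prmt1. It was read at 2485 and 2856 in NIC, 6719.5, 5679 and 5877 in NIC-Prmt1, 2838, 3842 and 3596 in NIC-Carm1, and 9590.6 and 9594 in NIC-Prmt6. Each NIC-Prmt1 library was above every NIC and NIC-Carm1 library. Fstl1 rose by 1.85 ± 0.15 in NIC-Prmt6 (limma, adjusted p = 7.44e-05) and by 1.19 ± 0.14 in NIC-Prmt1 (limma, adjusted p = 6.62e-04), and both calls held under all 21 alternatives. In NIC-Carm1 it was 0.35 ± 0.14 (limma, adjusted p = 0.106), with 1 NIC-Carm1 library inside the NIC range.

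Pdgfra (the alpha receptor for platelet-derived growth factor, which drives growth of mesenchymal cells; chromosome 5, 75152292 to 75198215, plus strand) encodes the growth factor receptor of the group. An antisense gene, Gm42802, shares 456 exon bases with it, and since the counting may not have used strand, its reads could be part of the value. Pdgfra was read at 1796 and 1984 in NIC, 3638, 2516 and 2935 in NIC-Prmt1, 1789, 1367 and 1461 in NIC-Carm1, and 4856 and 5093 in NIC-Prmt6. NIC-Carm1 lay below NIC without overlap, though its highest library was just under the lowest NIC library. Pdgfra rose by 1.40 ± 0.17 in NIC-Prmt6 (limma, adjusted p = 4.41e-04) and by 0.67 ± 0.16 in NIC-Prmt1 (limma, adjusted p = 0.0125). Its value in NIC-Carm1 was -0.30 ± 0.16 (limma, adjusted p = 0.216).

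Fap (fibroblast activation protein, a surface serine protease of activated fibroblasts; chromosome 2, 62500943 to 62574075, minus strand) was the least abundant member and had the largest rise against NIC. It was read at 148 and 203 in NIC, 358, 281 and 304 in NIC-Prmt1, 202, 273 and 235 in NIC-Carm1, and 939 and 987 in NIC-Prmt6. NIC was the lowest group here, with NIC-Carm1 overlapping its upper library. Fap rose by 2.47 ± 0.20 in NIC-Prmt6 (limma, adjusted p = 7.44e-05) and by 0.85 ± 0.18 in NIC-Prmt1 (limma, adjusted p = 0.00864). Its value in NIC-Carm1 was 0.43 ± 0.18 (limma, adjusted p = 0.133). NIC-Prmt1 lay below NIC-Prmt6 by -1.62 ± 0.18 (limma, adjusted p = 0.00181; 0.0876 with near-identical libraries averaged), while NIC-Prmt1 and NIC-Carm1 differed by 0.41 ± 0.16 (limma, adjusted p = 0.0880).

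**Figure D2:**
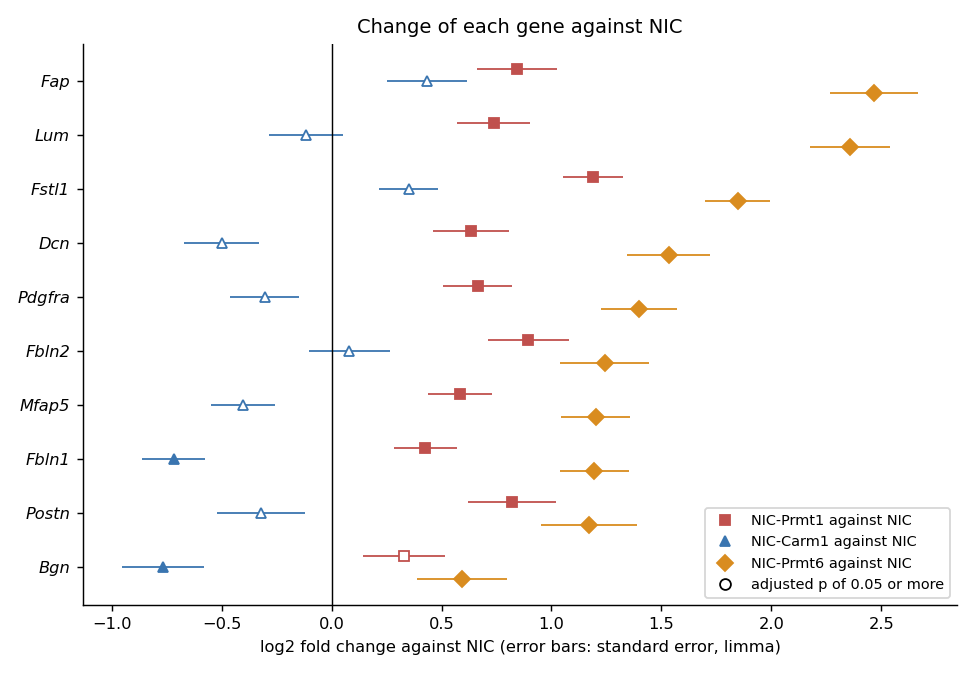
Log2 fold change against NIC of each member (x axis) in NIC-Prmt1, NIC-Carm1 and NIC-Prmt6, with bars of 1 standard error from limma; open symbols missed the threshold of 0.05. Fap (2.47) and Lum (2.36) lie farthest right in NIC-Prmt6, and the NIC-Carm1 points run from -0.77 (Bgn) to 0.43 (Fap).

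The counts of calls depended on the NIC libraries, of which there were only 2, for the members and for all genes. In NIC-Prmt1 the count of members was 9 with all libraries, 2 without NIC replicate 1 and 6 without NIC replicate 2, where all genes called went from 4645 to 2578 and 2271. Fstl1 was called under every alternative. Without NIC replicate 1 the limma adjusted p was 0.0615 for Fbln2, 0.0687 for Fap, 0.0718 for Lum, 0.0791 for Pdgfra and 0.110 for Mfap5, and Postn reached 0.118 without NIC replicate 2. In NIC-Carm1 the count of 2 became 0 without NIC replicate 1, without NIC replicate 2 and with the near-identical libraries averaged, where all genes called went from 2513 to 708, 1364 and 341. It became 4 without NIC-Carm1 replicate 1, where 3384 genes were called. In NIC-Prmt6 it stayed at 9 or 10 under all 21 alternatives. Without NIC-Prmt1 replicate 1, the library with skin keratinocyte reads, 7 members and 3457 of all genes were called in NIC-Prmt1.

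Between the PRMT groups, 9 members were higher in NIC-Prmt1 than in NIC-Carm1 (26.8% of all genes called, 14.9% as higher), with a median log2 difference of 0.98 and Fap as the exception. All 10 were lower in NIC-Carm1 than in NIC-Prmt6 (39.2% of all genes called, 20.9% as lower), by -1.16 (Fbln2) to -2.47 (Lum), with a median of -1.65. These 2 counts were the same under every alternative run. Between NIC-Prmt1 and NIC-Prmt6, 7 members were lower in NIC-Prmt1 (7.49% of all genes called, 4.94% as lower), and Bgn, Fbln2 and Postn, at -0.26, -0.35 and -0.35, were not called. That count fell to 2 without either NIC-Prmt6 library and to 0 when near-identical libraries were averaged, which left NIC-Prmt6 as 1 sample, and all genes called went from 1175 to 47, 48 and 16.

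Members did not move by the same factor, so their proportions shifted between groups. These ratios are a description of the libraries and were not tested. Lum was read at 0.147 and 0.165 of the Dcn count in NIC, 0.152 to 0.180 in NIC-Prmt1, 0.199 to 0.210 in NIC-Carm1, and 0.276 and 0.277 in NIC-Prmt6. The 2 neighbouring genes thus kept different proportions, with NIC-Prmt6 apart from all others. Bgn went from 0.748 and 0.753 of Dcn in NIC to 0.395 and 0.387 in NIC-Prmt6, with NIC-Prmt1 (0.536 to 0.675) and NIC-Carm1 (0.602 to 0.659) between. Fap was read at 0.0826 and 0.102 of Pdgfra in NIC, 0.0983 to 0.112 in NIC-Prmt1, 0.113 to 0.200 in NIC-Carm1 and 0.193 to 0.194 in NIC-Prmt6. For the 2 fibulins the order was another: Fbln2 to Fbln1 was 7.22 to 7.67 in NIC-Carm1, 5.46 to 6.47 in NIC-Prmt1, 3.92 and 4.65 in NIC, and 4.40 and 4.42 in NIC-Prmt6. NIC and NIC-Prmt6 therefore had a like balance of the fibulins although both genes rose in NIC-Prmt6.

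**Figure D3:**
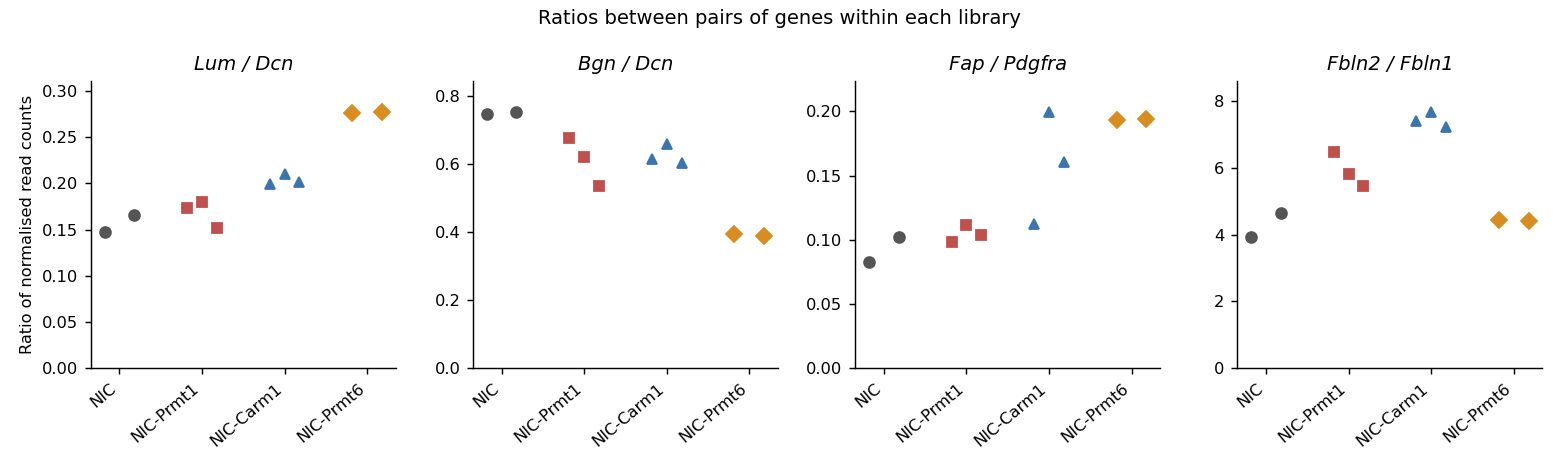
Ratio of normalised read counts of pairs of members in each library, by genotype; points are libraries. Lum to Dcn is highest in NIC-Prmt6 (0.276 and 0.277), Bgn to Dcn is lowest there (0.395 and 0.387), and Fbln2 to Fbln1 is highest in NIC-Carm1 (7.22 to 7.67).

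To compare the members with each other, counts were divided by the length of the gene's exons in kilobases. On this scale Dcn was the most abundant member in all 4 groups, from 5518 ± 1039 (SD, n = 3) in NIC-Carm1 to 22297 ± 10.9 (SD, n = 2) in NIC-Prmt6. Fap was the least abundant in all 4, from 63.8 ± 14.0 (SD, n = 2) in NIC to 350 ± 12.4 (SD, n = 2) in NIC-Prmt6. Bgn and Postn held the next places. In NIC, Bgn (4633 ± 27.7, SD, n = 2) and Postn (3817 ± 735, SD, n = 2) did not overlap, whereas Postn (3096 ± 844) and Bgn (2766 ± 557) of NIC-Carm1 (SD, n = 3) lay within their spread. In NIC-Prmt6 Postn (8509 ± 83.4, SD, n = 2) was above Bgn (6988 ± 99.7, SD, n = 2). Lum changed place: its rank by level was 5 in NIC, 6 in NIC-Prmt1 and NIC-Carm1, where Fstl1 and Lum did not differ beyond their spread (1608 ± 146 and 1596 ± 196 in NIC-Prmt1, SD, n = 3), and 4 in NIC-Prmt6, above Fbln2 (4885 ± 20.9 and 3298 ± 27.4, SD, n = 2). Mfap5, Fbln1 and Pdgfra followed in that order in every group.

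Within groups the order of the libraries was alike for most members. The share of all genes with the same order was not counted. In NIC-Prmt1, replicate 2 was lowest for all 10 members and replicate 1 highest for 8, the exceptions being Postn and Mfap5. In NIC-Carm1, replicate 1 was lowest for 8 members and highest for Postn and Pdgfra. In NIC, replicate 1 was lowest for 9 members and highest for Postn, but for Dcn and Bgn it was nearly equal to replicate 2 (ratios of 0.998 and 0.992). Across the 10 libraries, Pearson's r between pairs of members ran from 0.641 (Bgn and Fap) to 0.989 (Dcn and Fbln1), with a median of 0.896 over 45 pairs. These correlations describe 10 libraries that share 4 genotypes and a library size factor, so they rest largely on the group differences. Against the mean of the other 9 members, Dcn (r = 0.986) and Mfap5 (r = 0.974) were most alike and Bgn (r = 0.868), Postn (r = 0.870) and Fap (r = 0.873) least.

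Among 11670 genes with a mean count of at least 100 outside the list, the 6 with the highest r to the mean of the members over the 10 libraries were Dlc1, Cygb, P3h3, Lpar1, Esyt1 and Ppap2b, with r from 0.991 to 0.993. Cygb (cytoglobin, a globin of fibroblast-like cells) had mean counts of 1038 ± 122 in NIC, 2183.5 ± 367 in NIC-Prmt1, 983 ± 108 in NIC-Carm1 and 3686 ± 52.5 in NIC-Prmt6 (± SD). P3h3, a member of the prolyl 3-hydroxylase family that acts on collagen chains, had 695 ± 28.0 (SD, n = 2) in NIC and 1682 ± 8.63 (SD, n = 2) in NIC-Prmt6.

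The relatives of the proteoglycan members moved less evenly. For this and the following lists of relatives, the shares of all genes called in either direction were 36.8% in NIC-Prmt6, 29.6% in NIC-Prmt1 and 16% in NIC-Carm1. All genes called also became fewer in the fits with averaging or without a NIC library. Of 13 other small leucine-rich proteoglycan genes, 6 rose in NIC-Prmt1, 1 in NIC-Carm1 and 7 in NIC-Prmt6, where 1 fell. The median log2 fold changes were 0.73, -0.01 and 0.77. Tsku (tsukushi, a secreted binder of BMP and Wnt proteins) rose by 2.54 ± 0.25 in NIC-Prmt6 (limma, adjusted p = 1.44e-04), by 1.71 ± 0.23 in NIC-Prmt1 (limma, adjusted p = 0.00124) and by 1.05 ± 0.23 in NIC-Carm1 (limma, adjusted p = 0.0153). Aspn (asporin) rose by 1.73 ± 0.22 in NIC-Prmt6 (limma, adjusted p = 4.84e-04), from a mean count of 412 to 1364, and was also called higher in NIC-Prmt1. Chad (chondroadherin, a cartilage matrix protein) fell in NIC-Prmt6 by -2.94 ± 0.85 (limma, adjusted p = 0.0223). That call was lost in 4 of the 21 alternatives, among them those without NIC replicate 2 or either NIC-Prmt6 library. With near-identical libraries averaged, 3 of the 13 were called in NIC-Prmt6, 4 in NIC-Prmt1 and 0 in NIC-Carm1. In NIC-Prmt6 5 were called without NIC replicate 2 or either NIC-Prmt6 library, and in NIC-Carm1 0 without NIC replicate 1.

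All 5 other fibulin-family genes tested rose in NIC-Prmt6 and 3 rose in NIC-Prmt1 (Fbln5, Efemp2 and Hmcn1), while none was called in NIC-Carm1 by limma. Efemp1 (fibulin-3) had the largest change of them, 2.97 ± 0.44 in NIC-Prmt6 (limma, adjusted p = 0.00101), from a mean count of 703 to 5378. Fbln5 (fibulin-5, needed for elastic fibre assembly) rose by 1.29 ± 0.26 in NIC-Prmt6 (limma, adjusted p = 0.00426) and by 0.79 ± 0.23 in NIC-Prmt1 (limma, adjusted p = 0.0307). With near-identical libraries averaged, 2 of the 5 were called in NIC-Prmt6 and 0 in NIC-Prmt1. In NIC-Prmt6 3 were called without NIC replicate 2 or either NIC-Prmt6 library. The count in NIC-Prmt1 was 0 without NIC replicate 2 or NIC-Prmt1 replicate 1, 1 without NIC replicate 1, NIC-Prmt1 replicate 3 or either NIC-Prmt6 library, and 5 without NIC-Carm1 replicate 1. Of 17 other genes listed for elastic fibres and microfibrils, 10 rose and 1 fell in NIC-Prmt6. In NIC-Prmt1 11 rose and 2 fell (Ltbp2 and Mfap1a), and 1 rose in NIC-Carm1. Mfap1a was listed by its name, but its product is a nuclear splicing protein rather than one of the matrix. Without NIC replicate 1 or NIC replicate 2, 8 of the 17 were called in NIC-Prmt1. The gene called in NIC-Carm1 was Fbn1 (fibrillin-1, the core of microfibrils, which Mfap5 decorates), which rose by 1.84 ± 0.13 in NIC-Prmt6 (limma, adjusted p = 5.38e-05), 1.24 ± 0.12 in NIC-Prmt1 (limma, adjusted p = 3.71e-04) and 0.69 ± 0.12 in NIC-Carm1 (limma, adjusted p = 0.00584). Loxl1 (a lysyl oxidase that cross-links elastin) rose by 2.21 ± 0.16 in NIC-Prmt6 (limma, adjusted p = 5.38e-05), and was also called higher in NIC-Prmt1.

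Of 15 other matricellular genes, 9 rose and 1 fell in NIC-Prmt6, 7 rose and 2 fell in NIC-Prmt1, and 1 rose and 3 fell in NIC-Carm1. The 9 calls in NIC-Prmt1 became 4 without NIC replicate 1, 3 without NIC replicate 2 and 5 with near-identical libraries averaged. The 4 calls in NIC-Carm1 became 1 without NIC replicate 1 or with averaging, 2 without NIC-Carm1 replicate 2 and 7 without NIC-Carm1 replicate 1. Fn1 (fibronectin) rose by 2.75 ± 0.29 in NIC-Prmt6 (limma, adjusted p = 2.27e-04), from a mean count of 8829 to 58866, and was also called higher in NIC-Prmt1. Thbs1 (thrombospondin-1), an abundant gene with a mean count of 128720.0 in NIC, went the other way from Postn and Fstl1 in NIC-Prmt1, where it fell by -1.26 ± 0.24 (limma, adjusted p = 0.00481). It also fell in NIC-Carm1, by -1.75 ± 0.24 (limma, adjusted p = 0.00210), and its value in NIC-Prmt6 was -0.63 ± 0.26 (limma, adjusted p = 0.0806). Of 13 larger proteoglycans and glypicans, 8 rose and 3 fell in NIC-Prmt6, 6 rose and 3 fell in NIC-Prmt1, and 1 rose and 2 fell in NIC-Carm1. The 11 calls in NIC-Prmt6 became 6 with averaging and 7 without NIC-Prmt6 replicate 1. The 3 calls in NIC-Carm1 became 1 with averaging or without either NIC library, and 5 without NIC-Carm1 replicate 1. Hspg2 (perlecan of basement membranes) rose by 1.75 ± 0.21 in NIC-Prmt6 (limma, adjusted p = 3.70e-04) and by 1.13 ± 0.19 in NIC-Prmt1 (limma, adjusted p = 0.00306). Sdc4 (syndecan-4, a cell-surface proteoglycan) fell by -1.62 ± 0.22 in NIC-Prmt6 (limma, adjusted p = 6.82e-04), by -1.24 ± 0.20 in NIC-Prmt1 (limma, adjusted p = 0.00267) and by -1.08 ± 0.20 in NIC-Carm1 (limma, adjusted p = 0.00802).

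Decorin and biglycan carry dermatan sulfate, which is made from chondroitin sulfate by the epimerases of the genes Dse and Dsel. Dsel rose in NIC-Prmt6 by 1.59 ± 0.14 (limma, adjusted p = 9.28e-05), in NIC-Prmt1 by 0.75 ± 0.13 (limma, adjusted p = 0.00300) and in NIC-Carm1 by 0.47 ± 0.13 (limma, adjusted p = 0.0325). Dse rose in NIC-Prmt6 by 1.44 ± 0.15 (limma, adjusted p = 2.27e-04). B4galt7, which adds the first galactose of the linker between core protein and sugar chain, fell in NIC-Prmt1 by -0.75 ± 0.14 (limma, adjusted p = 0.00494), and was also called lower in NIC-Prmt6. Among the 18 genes of chain synthesis, 9 rose and 1 fell in NIC-Prmt6, 6 rose and 3 fell in NIC-Prmt1, and 2 rose in NIC-Carm1. The 2 calls in NIC-Carm1 became 0 with averaging or without NIC replicate 1, 4 without NIC-Carm1 replicate 1, and 1 without NIC-Carm1 replicate 2 or 3 or either NIC-Prmt6 library.

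Proteases that cut small proteoglycans and fibulins were also among the genes that rose. Their list of 10 genes also held Pcolce and Pcolce2, which enhance procollagen cleavage and are not proteases. Of the 10 tested, 9 rose in NIC-Prmt6 (with Pcolce and Pcolce2), 7 in NIC-Prmt1 (with Pcolce) and 1 (Mmp14) in NIC-Carm1. None fell in any of the 3, and the median log2 fold changes were 1.68, 0.78 and 0.01. Bmp1, whose product trims the propeptide of biglycan, rose by 1.46 ± 0.13 in NIC-Prmt6 (limma, adjusted p = 1.00e-04), and was also called higher in NIC-Prmt1. Mmp14 (a membrane-bound matrix metalloproteinase) rose by 1.53 ± 0.18 in NIC-Prmt6 (limma, adjusted p = 3.86e-04), by 1.29 ± 0.17 in NIC-Prmt1 (limma, adjusted p = 0.00114) and by 1.05 ± 0.17 in NIC-Carm1 (limma, adjusted p = 0.00446). With near-identical libraries averaged, 8 of the 10 were called in NIC-Prmt6, 4 in NIC-Prmt1 and 0 in NIC-Carm1. Without NIC replicate 1, 4 were called in NIC-Prmt1, and without NIC-Carm1 replicate 1, 2 in NIC-Carm1.

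Of the 5 other genes of platelet-derived growth factors and their receptors, Pdgfrb and Pdgfd rose in NIC-Prmt6, Pdgfrb in NIC-Prmt1, and Pdgfa fell in NIC-Carm1. Over all genes, 36.8%, 29.6% and 16% were called in NIC-Prmt6, NIC-Prmt1 and NIC-Carm1. The counts among these 5 genes, and among the 5 peptidases below, are not set apart from those shares. Pdgfrb, the receptor typical of pericytes and fibroblasts, rose by 1.86 ± 0.18 in NIC-Prmt6 (limma, adjusted p = 1.37e-04) and by 1.39 ± 0.16 in NIC-Prmt1 (limma, adjusted p = 7.95e-04). Pdgfa, a ligand of the Pdgfra product, fell in NIC-Carm1 by -1.05 ± 0.18 (limma, adjusted p = 0.00573), from a mean count of 494 to 237. The peptidases related to Fap moved less than Fap did: of 5 tested, Dpp9 (0.50 ± 0.14, limma, adjusted p = 0.0197) and Dpp7 (0.45 ± 0.15, limma, adjusted p = 0.0426) rose in NIC-Prmt6, Dpp8 (0.30 ± 0.09, limma, adjusted p = 0.0349) rose in NIC-Prmt1, and none was called in NIC-Carm1. These 3 calls, and that of Pdgfa, were lost with near-identical libraries averaged. Those of Dpp7, Dpp8 and Dpp9 were also lost without NIC replicate 1 and without either NIC-Prmt6 library.

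Among 11 receptors and partners of the secreted members, 5 rose and 4 fell in NIC-Prmt6, 2 rose and 2 fell in NIC-Prmt1, and 1 rose and 3 fell in NIC-Carm1. The 9 calls in NIC-Prmt6 became 3 with averaging and 5 without either NIC-Prmt6 library or NIC-Carm1 replicate 3, and the 4 in NIC-Carm1 became 2 with averaging or without NIC replicate 1. Tlr2, a Toll-like receptor that binds biglycan, fell in NIC-Prmt1 by -1.90 ± 0.25 (limma, adjusted p = 0.00122) in NIC-Carm1 by -1.57 ± 0.25 (limma, adjusted p = 0.00446) and in NIC-Prmt6 by -1.41 ± 0.28 (limma, adjusted p = 0.00406), from a mean count of 4733 in NIC to 1280.0, 1662 and 1779. Dip2a, reported as a receptor for the Fstl1 product, rose in NIC-Prmt6 by 1.08 ± 0.12 (limma, adjusted p = 2.89e-04) and in NIC-Carm1 by 0.71 ± 0.11 (limma, adjusted p = 0.00389), and was also called higher in NIC-Prmt1. In NIC-Carm1, averaging the near-identical libraries ended the calls of Tsku, Fbn1, Mmp14, Dsel, Sdc4, Cxcl14 and Serpinf1, and leaving out NIC replicate 1 ended those of Tsku, Fbn1, Dsel, Cxcl14 and Serpinf1, while those of Thbs1 and Tlr2 held under all 21 alternatives. Of 21 other fibroblast genes, 18 rose in NIC-Prmt6 and 11 in NIC-Prmt1, and none fell in either. In NIC-Carm1 1 rose and 2 fell, the latter being Cxcl14 and Serpinf1 (chemokine and secreted serpin genes), and all 3 calls were lost with averaging, without NIC replicate 1 and without NIC-Carm1 replicate 2 or 3, while 8 genes were called without NIC-Carm1 replicate 1 and 5 without NIC-Prmt1 replicate 1. The 11 calls in NIC-Prmt1 became 5 without NIC replicate 1 and 7 without NIC replicate 2 or with averaging. Thy1 (a surface protein of fibroblasts) rose by 1.56 ± 0.14 in NIC-Prmt6 (limma, adjusted p = 1.00e-04) and by 0.88 ± 0.13 in NIC-Prmt1 (limma, adjusted p = 0.00151).

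Markers of some other cells of the gland moved in the same libraries as the members, and others did not. Of all genes tested, 36.8% were called in NIC-Prmt6 (19% as higher), 29.6% in NIC-Prmt1 (15.2%) and 16% in NIC-Carm1 (6.65%). All 10 endothelial markers and all 8 pericyte markers rose in both NIC-Prmt1 and NIC-Prmt6. In NIC-Carm1, 3 pericyte markers were called higher (Abcc9, Kcnj8 and Rgs5) and 1 lower (Mcam). The endothelial sum was 34365 to 42714 in NIC, 64921 to 93206 in NIC-Prmt1, 35137 to 42092 in NIC-Carm1 and 87835 to 88872 in NIC-Prmt6. The pericyte sum was 12796 to 13054, 24106 to 36287, 15201 to 18490 and 32144 to 33257 in the same order. Endothelial, pericyte and member sums had NIC-Prmt1 and NIC-Prmt6 on top. So did the sums of the fibroblast collagens and of the basal and adipocyte markers given below. The 7 fibroblast collagens, of which 7 rose in NIC-Prmt6, 5 in NIC-Prmt1 and 0 passed the threshold in NIC-Carm1, summed to 301425 to 302663 in NIC-Prmt6, 130051 to 174686 in NIC-Prmt1, 81181 to 104663 in NIC and 81333 to 104705 in NIC-Carm1. Basal and myoepithelial markers were called higher for 9 of 10 in NIC-Prmt1 and 2 of 10 in NIC-Prmt6, with sums of 99198 to 174658 and 66372 to 66681 against 50642 to 58292 in NIC. Luminal epithelial markers were lower for 5 of 10 in NIC-Prmt6 and 6 of 10 in NIC-Carm1, with 3 lower and 3 higher in NIC-Prmt1. Their sum was 262261 to 316809 in NIC and 169078 to 243008 in NIC-Prmt1. In NIC-Carm1 it was 141602 to 178734, and in NIC-Prmt6 157675 to 159448. In NIC-Prmt1, NIC-Carm1 and NIC-Prmt6 alike, the luminal sum lay below that of NIC. Adipocyte markers summed to 39174 to 39796 in NIC-Prmt6, 18210 to 27836 in NIC-Prmt1, 10322 to 13875 in NIC-Carm1 and 8730 to 11402 in NIC. They were called higher for 3 of 9 in NIC-Prmt6 and 2 of 9 in NIC-Prmt1, and lower for 1 in NIC-Carm1. Macrophage markers were called higher for 7 of 9 in NIC-Prmt6, 1 in NIC-Carm1 and 0 in NIC-Prmt1. Their sum was 19696.5 to 20277.5 in NIC-Prmt6, 18459 to 20619 in NIC-Carm1, 10134.5 to 17409 in NIC-Prmt1 and 13571 to 14581 in NIC. Of the remaining lists, 3 of 9 skin keratinocyte markers were higher in NIC-Prmt1, 2 of 6 muscle markers were higher in NIC-Prmt1 and 1 each in NIC-Carm1 and NIC-Prmt6, 3 of 5 Schwann cell markers were lower in NIC-Carm1 and NIC-Prmt6 and 1 in NIC-Prmt1, and of 3 mesothelial markers 1 was higher in NIC-Prmt1 and 1 lower in NIC-Prmt6. None of the endothelial, pericyte, basal, luminal, adipocyte or macrophage markers was at 0 in any library, and the part of these cells in the members' values was not tested.

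**Figure D4:**
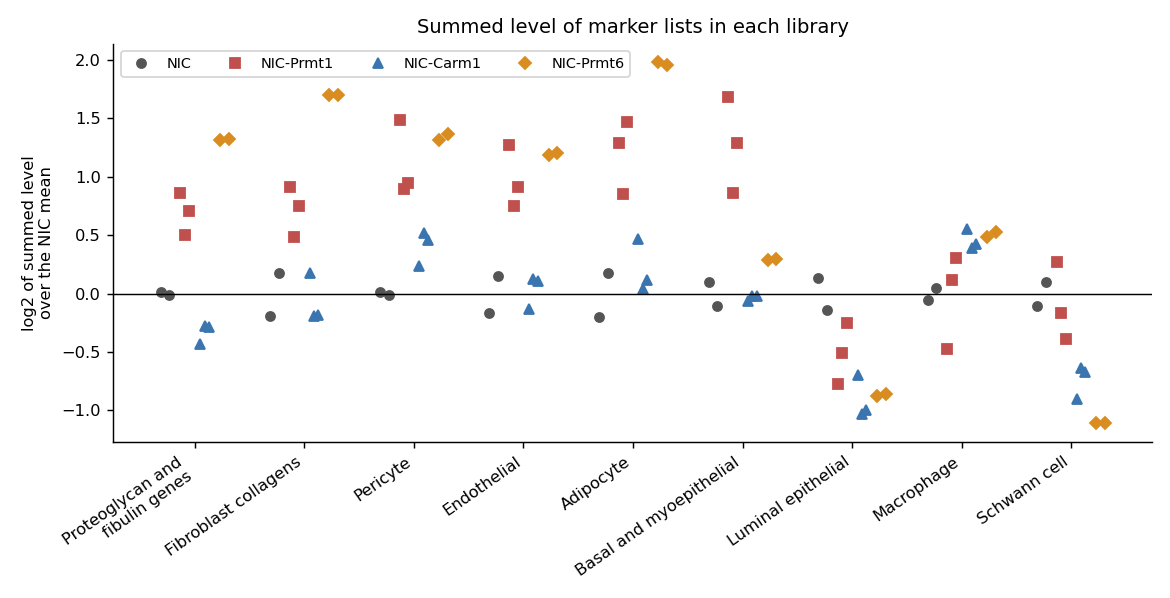
Summed normalised read count of the members and of marker lists in each library, as the log2 of its ratio to the NIC mean (y axis), by genotype; points are libraries. The endothelial, pericyte, adipocyte, collagen and basal sums of NIC-Prmt1 and NIC-Prmt6 lie above those of NIC and NIC-Carm1. The luminal sums of NIC (262261 and 316809) lie above all other groups.

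The members moved together, so the DNA in front of their starts was read from the RefSeq promoter table (GRCm38.p6). It held 6 of the 10 genes in 8 windows; Lum, Dcn, Fap and Mfap5 were not matched. Of each window the 250 bases before the start were used, on both strands. The windows of Postn, Bgn and Pdgfra are shown because they differ in their core elements. Capitals mark the TATA box letters TATAAA and the GC box letters GGGCGG, the latter also as their complement; overlapping matches of GGGCGG run into each other in Bgn.
Postn, chr3:54360857-54361106, plus strand: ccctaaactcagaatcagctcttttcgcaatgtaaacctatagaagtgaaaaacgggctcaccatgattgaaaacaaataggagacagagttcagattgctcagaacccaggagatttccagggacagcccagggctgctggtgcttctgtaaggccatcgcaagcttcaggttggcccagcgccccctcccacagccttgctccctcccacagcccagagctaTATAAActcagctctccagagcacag
Bgn, chrX:73483351-73483600, plus strand: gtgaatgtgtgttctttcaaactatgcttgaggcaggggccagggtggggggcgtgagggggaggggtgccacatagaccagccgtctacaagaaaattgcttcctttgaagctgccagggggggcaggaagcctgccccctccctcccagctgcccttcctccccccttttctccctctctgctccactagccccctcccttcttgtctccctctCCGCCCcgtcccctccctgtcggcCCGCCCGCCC
Pdgfra, chr5:75152001-75152250, plus strand: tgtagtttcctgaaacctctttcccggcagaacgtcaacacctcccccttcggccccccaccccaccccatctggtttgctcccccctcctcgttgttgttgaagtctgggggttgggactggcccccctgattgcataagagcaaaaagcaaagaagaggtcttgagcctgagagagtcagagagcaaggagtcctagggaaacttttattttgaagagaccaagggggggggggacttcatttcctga
TATAAA was found in 1 of the 8 windows, 26 bases before the start of Postn, and in 12.4% of all 32851 promoters of the table. GGGCGG was found in 4 windows (Bgn, Fbln1, Fbln2 and Fstl1) and in 32.7% of all promoters, with 3 matches in Bgn, all on the minus strand. The window of Pdgfra held neither. CANNTG, the letters of the E-box, was found in 5 windows and 66.2% of all promoters. TGANTCA (AP-1), GGAATG (TEAD) and CCAAT were found in none of the 8 windows, and in 6.75%, 12.6% and 33.8% of all promoters. GC content was 52.0% in the Postn window, 64.4% in that of Bgn and 54.4% in that of Pdgfra, and the median of all promoters was 52.4%. A match describes letters and not a bound site, and these data hold no measurement of binding.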

How the data were processed

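Per the labels' protocols, RNA was extracted with Trizol, treated with DNase I, selected for poly-A and made into libraries with a TruSeq v2 kit. Per the submitters' processing notes, TopHat2 2.0.10, HTSeq 0.6.0, DESeq 1.18.0 and the build mm10 were used; the annotation, strand setting and any filter: not given in the sources used here. The deposited table holds a normalised signal. In every library 100% of its values were whole multiples of the smallest step within 0.01, so whole reads were recovered.

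The test was limma-trend (limma 3.58.1, R 4.3.3) on log2(value + 1) over all 10 libraries and 4 group means, for the 15694 genes reaching a value of 10 in 2 or more libraries. Benjamini-Hochberg adjustment ran over all of them, with a threshold of 0.05. The pseudocount slightly understates folds of low genes. The planned edgeR test was for raw counts; since the deposited values are normalised, edgeR 4.0.16 and DESeq2 1.42.0 served as alternatives on recovered reads. The fit was run on simulated data with all libraries drawn independently, which does not cover the near-identical pairs. Exon lengths and positions are from GENCODE vM21 (GRCm38). Named relatives are the 2 genes with the smallest adjusted p per list and comparison with NIC; Chad, Hmcn1, Ltbp2 and Mfap1a, and the NIC-Prmt6 values of Mmp14, Sdc4, Thbs1 and Tlr2, were added after their values were seen. Members and lists were chosen with earlier results of these data known. The list genes Podnl1, Hmcn2, Magp, C1s, Flg, Upk3b and Lrrn4 were not analysed here.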

Additional observations from a re-analysis of the deposited data

How the results depend on the processing

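Of 60 member results (10 members in 6 comparisons), 47 passed the threshold, and 29 of these passed it under all 21 alternatives. Only values that had not passed changed direction: Fbln2 in NIC-Carm1 against NIC ran from -0.0831 to 0.243 over the fits leaving out a library, and was -0.0102 without NIC-Carm1 replicate 2, and Lum there ran from -0.210 to 0.0657. Leaving out a library moved the members called from 0 to 4 (NIC-Carm1 against NIC), 2 to 9 (NIC-Prmt1 against NIC) and 2 to 7 (NIC-Prmt1 against NIC-Prmt6). All genes called then ran from 708 to 3384 in NIC-Carm1, 2271 to 5646 in NIC-Prmt1 and 2656 to 6632 in NIC-Prmt6, each against NIC. Between PRMT groups they ran from 2638 to 4692 (NIC-Prmt1 against NIC-Carm1), 47 to 2241 (NIC-Prmt1 against NIC-Prmt6) and 2569 to 6799 (NIC-Carm1 against NIC-Prmt6). Where 1 library of a group of 2 was left, it was assumed to vary like the other groups.

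Averaging near-identical libraries leaves fewer samples: it gave 0 members in NIC-Carm1 against NIC and in NIC-Prmt1 against NIC-Prmt6, and all genes called were 341 (main 2513), 2606 (4645) and 1667 (5778) for NIC-Carm1, NIC-Prmt1 and NIC-Prmt6 against NIC. Between PRMT groups they were 1364 (4199), 16 (1175) and 1261 (6157), in the order given above. The 2 compared groups alone gave 1596 in NIC-Carm1 and 2785 in NIC-Prmt1 against NIC, and DESeq2 gave 2119 in NIC-Prmt1 against NIC-Prmt6. Upper-quartile rescaling moved that comparison's split from 399 higher and 776 lower to 567 and 562. It moved the split in NIC-Carm1 against NIC less, from 41.5% to 51.4% higher. No scaling moved the median of all genes by 0.1.

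With the replicate block, 1667 genes (NIC-Carm1 against NIC) and 571 (NIC-Prmt1 against NIC-Prmt6) were called, and 7, 2 and 9 members in NIC-Prmt1, NIC-Carm1 and NIC-Prmt6 against NIC. Over 13 same-numbered pairs, the correlation of deviations ran from -0.132 to 0.100. This cannot decide whether replicate numbers pair the libraries, since groups of 2 give mirrored deviations and differently numbered pairs were not compared. Of 61 results of named related genes, 43 passed under all 21 alternatives, added for them after seeing the data, and none reversed.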
